A study of Mus musculus with 6 samples.

Results

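The nuclear genes of respiratory complexes III, IV and V and of cytochrome c were examined in the leg muscle of mouse fetuses at E18.5d, in 3 WT and 3 *SYISL* KO samples. Members were the protein-coding genes whose symbols start with Uqcr, Cox4 to Cox8 or Atp5, together with *Cyc1* and *Cycs*. This gave 46 of the 56262 gene IDs in the counts, of which 9 belong to complex III, 18 to complex IV, 18 to complex V and 1 is cytochrome c. They carry 45 symbols, because *Atp5o* has a pair of IDs. *SYISL* is a long noncoding RNA transcribed within *Synpo2*. Both groups were bred by mating mice of like genotype, so each KO fetus also had a KO mother, and the genotype of the fetus and that of the mother cannot be told apart. The labels give no strain and do not say whether samples came from separate litters or from pooled fetuses, so p-values measure only the spread between these samples. The annotation has no gene named *SYISL*, and the deletion itself was not checked here.

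In the inner mitochondrial membrane, complex III passes electrons from ubiquinol to cytochrome c, and complex IV, cytochrome c oxidase, passes them on to oxygen. Both pump protons, and complex V, the ATP synthase, uses the proton gradient to make ATP. A few subunits come from the mitochondrial genome, among them the catalytic core of complex IV, and the others are nuclear. Complex IV has subunits with alternative isoforms: *Cox6a2*, *Cox7a1* and *Cox8b* are known from heart and skeletal muscle, while *Cox6a1*, *Cox7a2* and *Cox8a* are made in most tissues. *Cox7a1* and *Cox8b* are also well expressed in brown fat.

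The KO samples held more mRNA of most of these genes. Of the 46 IDs, 43 had enough counts to test, and 36 of the 43 (83.7%) were higher in KO and 0 lower. Over all 22071 genes tested, 21.9% were higher and 23.1% lower at the same threshold, a Benjamini-Hochberg adjusted p under 0.05 in edgeR's quasi-likelihood test. The rises were mostly modest, from 1.11-fold to 3.96-fold. With a fold change over 1.5 asked for as well, 10 members (23.3%) were higher and 0 lower, against 8.31% and 8.39% of all genes tested. In 33 members (76.7%) every KO sample lay above every WT sample, which held for 27.3% of all genes tested. The median log2 fold change was 0.37 over the tested members, and 0.37 also without the 3 muscle isoforms, beside -0.0041 over all genes tested. In whole tissue, a larger share of a cell type and more RNA per cell cannot be told apart.

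Complex III had 9 of 9 tested members higher with a median log2 fold change of 0.37, complex IV 11 of 16 with 0.36, and complex V 15 of 17 with 0.38. *Cycs* was higher too. The 3 IDs left untested were *Cox7b2*, with at most 4 counts in any sample, *Cox8c*, with at most 2, and the second *Atp5o* ID, with 0. *Cox7b2* and *Cox8c* are isoforms known from testis. The 7 tested members that were not called were *Cox4i2*, *Cox6a1*, *Cox6c*, *Cox7a2l* and *Cox8a* of complex IV and *Atp5k* and *Atp5s* of complex V. Members could be compared as sums of CPM (counts relative to library size, here TMM-scaled) per kilobase of exon. These sums went from 804.1 ± 20.9 (SD, n = 3) in WT to 1062 ± 115.5 in KO for complex III, a ratio of 1.32. For complex IV they went from 1668 ± 17.5 to 2238 ± 199, and for complex V from 1302 ± 12.1 to 1749 ± 135, ratios of 1.34 and 1.34. Cytochrome c had the largest ratio of the 4, from 20.9 ± 1.52 to 36.3 ± 1.81 or 1.74. These sums were not tested.

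**Figure D1:**
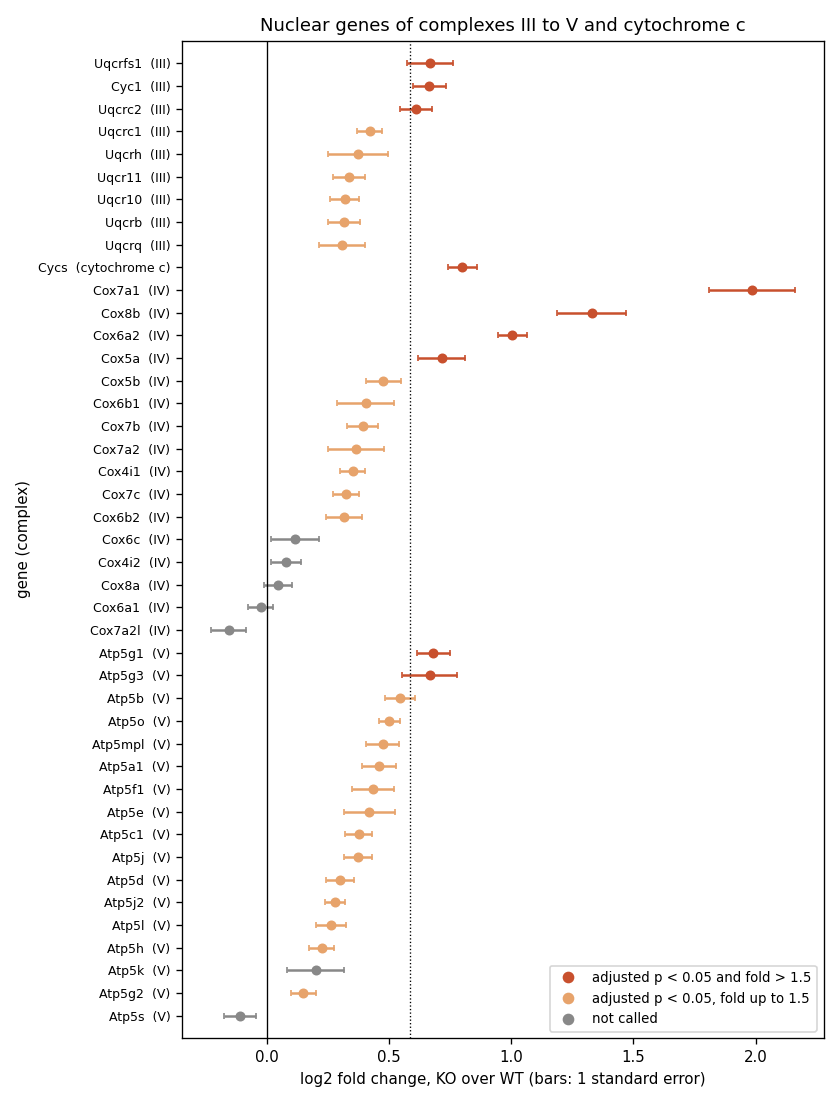
Log2 fold change of KO over WT for each of the 43 tested members, by complex, with bars of 1 standard error and a dotted line at 1.5-fold. 40 points lie above 0 and 3 below, and *Cox7a1*, *Cox8b* and *Cox6a2* stand furthest to the right, at 1.98, 1.33 and 1.005.

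The libraries held 82054811 to 102233181 counts, so a gene with 0 counts could still be present at 0.0293 to 0.0366 CPM (3 counts, counting error only). The members took 0.639% to 0.664% of all counts in WT and 0.785% to 0.887% in KO. The KO samples were not alike: among the KO samples, KO 1 was the lowest in 38 of the 43 tested members (88.4%), against 38.4% of all genes tested, and KO 2 the highest in 39 (90.7%), against 33.4%. The mRNA levels of cell type markers differed as well. For comparison, 21.9% of all genes tested were higher and 23.1% lower, and with a fold change over 1.5 as well, 8.31% and 8.39%. Of 11 myofibre markers 10 were higher in KO, all over 1.5-fold, and their summed level was 19120 to 21440 CPM in WT and 40840 to 49480 CPM in KO. The embryonic myosin *Myh3* was not called, with a log2 fold change of -0.04. All 10 keratinocyte markers were lower, at 16630 to 24970 CPM in sum in WT and 731.3 to 848.0 CPM in KO, and so were all 7 erythroid markers, at 3947 to 5191 and 548.0 to 668.8 CPM. Among the keratinocyte markers, log2 fold changes ran from -1.35 for *Trp63* to -10.2 for *Krt77*. *Krt1* and *Krt10*, the most abundant of them in WT at means of 9575 and 5837 CPM, had -5.47 and -6.20. Of 11 adipocyte markers 10 were higher, at 125.4 to 159.0 CPM in sum in WT and 374.3 to 437.1 CPM in KO. Those known from brown fat did not all move one way: *Cidea*, *Elovl3* and *Dio2* were higher, with log2 fold changes of 0.62, 0.63 and 0.40, and *Ucp1* was lower, at 0.433 to 0.666 CPM in WT and 0.0839 to 0.160 CPM in KO. The part of these markers in the results on respiratory genes was not tested. The members together rose from 6369 ± 58.3 to 8621 ± 709 CPM, 1.35-fold, and the myofibre markers 2.27-fold, so that the ratio of the former to the latter was 0.300 to 0.332 in WT and 0.179 to 0.192 in KO.

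**Figure D2:**
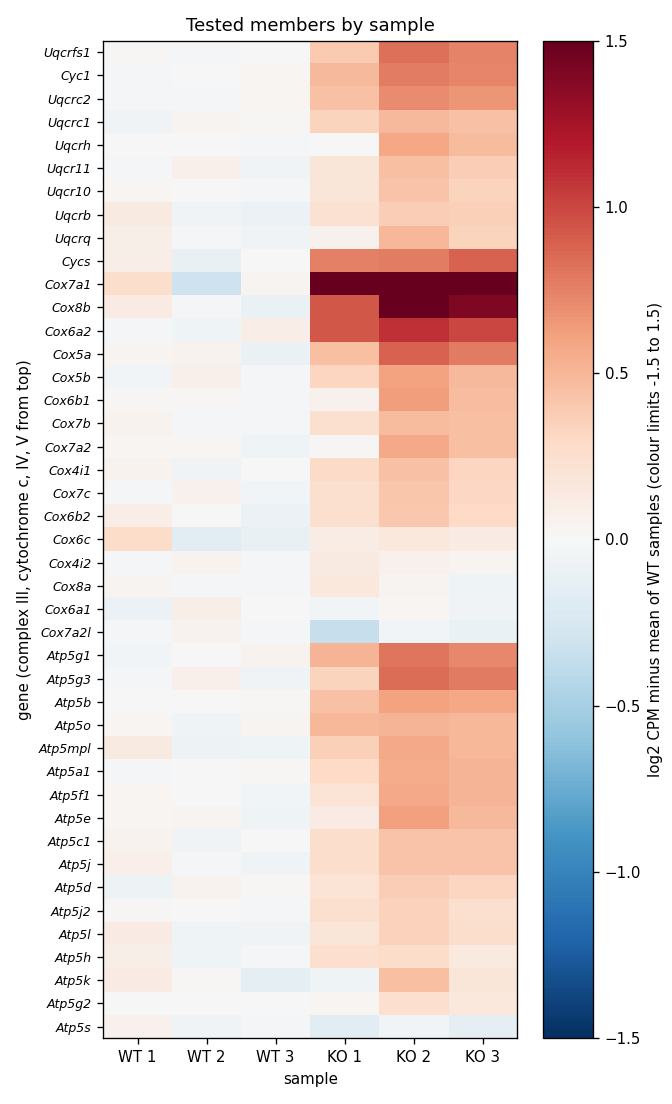
Log2 CPM of each tested member in each of the 6 samples, less the mean of its WT samples, with colour limits at -1.5 and 1.5. Most rows are red in the 3 KO columns, KO 1 is paler than KO 2 in most, and *Cox7a1*, *Cox8b* and *Cox6a2* are the darkest.

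The 3 muscle isoforms of complex IV led the whole set, and they are shown with their promoters because they are the members that moved most. They lie on chromosome 7 of mm10, with *Cox7a1* at chr7:30184144-30186078 on the plus strand, *Cox6a2* at chr7:128205435-128206387 and *Cox8b* at chr7:140898945-140900446, both on the minus strand. Their partners *Cox6a1*, *Cox7a2* and *Cox8a* lie on chromosomes 5, 9 and 19. The promoter windows of RefSeq on GRCm38.p6, the assembly of mm10, run from 250 bases before a gene's start to 50 bases after it. Windows were searched on both strands for the core sites of NRF1 (CGCATGCG), ETS factors such as GABPA (CCGGAAGT), YY1 (AAGATGGC) and ERR (TCAAGGTCA), for the myogenic E-box CAGCTG and for the MEF2 site. Matches are in capitals below, for 2 muscle isoforms and their partners, written 5′ to 3′ on the strand of the gene.
Cox7a1, chr7:30183921-30184220, plus strand: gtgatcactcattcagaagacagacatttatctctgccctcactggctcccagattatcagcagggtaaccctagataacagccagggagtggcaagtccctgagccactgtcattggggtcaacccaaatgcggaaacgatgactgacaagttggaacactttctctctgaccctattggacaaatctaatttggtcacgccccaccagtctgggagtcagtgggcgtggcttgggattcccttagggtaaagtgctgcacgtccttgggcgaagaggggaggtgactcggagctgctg
Cox7a2, chr9:79759804-79760103, minus strand: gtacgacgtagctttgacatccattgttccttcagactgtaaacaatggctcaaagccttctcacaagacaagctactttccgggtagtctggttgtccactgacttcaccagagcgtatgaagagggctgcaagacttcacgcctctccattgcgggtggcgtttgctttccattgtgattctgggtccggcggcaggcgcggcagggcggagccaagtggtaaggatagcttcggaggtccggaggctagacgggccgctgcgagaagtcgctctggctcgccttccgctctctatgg
Cox8b, chr7:140900397-140900696, minus strand: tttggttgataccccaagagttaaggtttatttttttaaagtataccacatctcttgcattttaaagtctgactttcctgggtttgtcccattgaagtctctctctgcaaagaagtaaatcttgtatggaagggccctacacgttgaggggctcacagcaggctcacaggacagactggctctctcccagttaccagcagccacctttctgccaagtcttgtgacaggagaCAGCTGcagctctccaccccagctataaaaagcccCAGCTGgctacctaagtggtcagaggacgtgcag
Cox8a, chr19:7217567-7217866, minus strand: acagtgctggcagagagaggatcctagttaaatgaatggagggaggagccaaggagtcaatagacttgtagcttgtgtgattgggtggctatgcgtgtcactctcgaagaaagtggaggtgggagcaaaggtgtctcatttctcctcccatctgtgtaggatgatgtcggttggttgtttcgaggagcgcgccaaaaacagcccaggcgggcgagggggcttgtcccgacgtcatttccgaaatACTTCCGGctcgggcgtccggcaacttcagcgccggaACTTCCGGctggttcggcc
The *Cox8b* window held the E-box letters at -19 to -14 and at 17 to 22 from the start, and the *Cox8a* window held the ETS letters, read on the opposite strand, at -6 to 2 and at 32 to 39. None of these letters stood in the *Cox7a1* or *Cox7a2* window, which says only that they are not within it. Promoter windows were found for 32 of the 45 symbols (35 windows) and not for *Cox6a2*. The NRF1 letters were in 8 of the 35 (22.9%), against 1.87% of all 32851 windows of the same length, among them those of *Cycs*, *Uqcrc1* and *Cox6a1*. The ETS letters were in 4 (11.4% against 3.89%), the YY1 letters in 2 (5.71% against 2.75%), the ERR letters in 1, that of *Atp5g3* (2.86% against 0.423%), the E-box in 2 (5.71% against 16.3%) and the MEF2 site in 0, against 3.19%. A match of letters is not evidence of binding.

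*Cox7a1* rose the most of all members. It stood at 4.87, 3.28 and 4.18 CPM in WT 1 to 3 and at 12.5, 19.2 and 17.2 CPM in KO 1 to 3. Every KO sample was above every WT sample, with WT 2 the lowest and KO 2 the highest. The log2 fold change was 1.98 (SE 0.175), a 3.96-fold rise, with an adjusted p of 1.67e-05 in edgeR's quasi-likelihood test. *Cox8b* stood at 21.8, 19.6 and 18.7 CPM in WT and at 38.2, 60.0 and 52.9 CPM in KO, again without overlap and with KO 1 the lowest KO sample. It rose by a log2 fold change of 1.33 (SE 0.142), or 2.51-fold, with an adjusted p of 5.9e-05. *Cox6a2*, by far the most abundant of these isoforms per length, had 123.9, 121.0 and 135.3 CPM in WT and 240.9, 269.5 and 252.8 CPM in KO. Its KO samples lay close together, and the log2 fold change was 1.005 (SE 0.0577), 2.01-fold, with an adjusted p of 1.03e-06. 70 exonic bases of *Cox6a2* are shared with *Itgad* on the opposite strand, and the strand setting of the counting is not given.

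Of their ubiquitous partners, *Cox7a2* passed the test and *Cox6a1* and *Cox8a* did not. *Cox6a1* stood at 126.1, 143.1 and 134.8 CPM in WT and at 130.6, 136.8 and 129.7 CPM in KO, so that the groups overlapped. Its log2 fold change of -0.02 (SE 0.0511, adjusted p = 0.73) turned to 0.04 with upper-quartile factors and to 0.02 without WT 2. *Cox8a* overlapped too, at 140.8, 134.4 and 134.0 CPM in WT and 152.1, 140.0 and 130.1 CPM in KO, and its log2 fold change of 0.04 (SE 0.0569, adjusted p = 0.561) turned to -0.02 with library size alone and to -0.0093 without KO 1. *Cox7a2* was called higher, at 81.9, 82.3 and 77.2 CPM in WT and 81.2, 119.3 and 110.3 CPM in KO. Its KO 1 sample lay within the WT range. The log2 fold change of *Cox7a2* was 0.36 (SE 0.116), with an adjusted p of 0.0289 that rose above 0.05 when WT 1, WT 3, KO 2 or KO 3 was left out, at 0.0581 to 0.118.

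**Figure D3:**
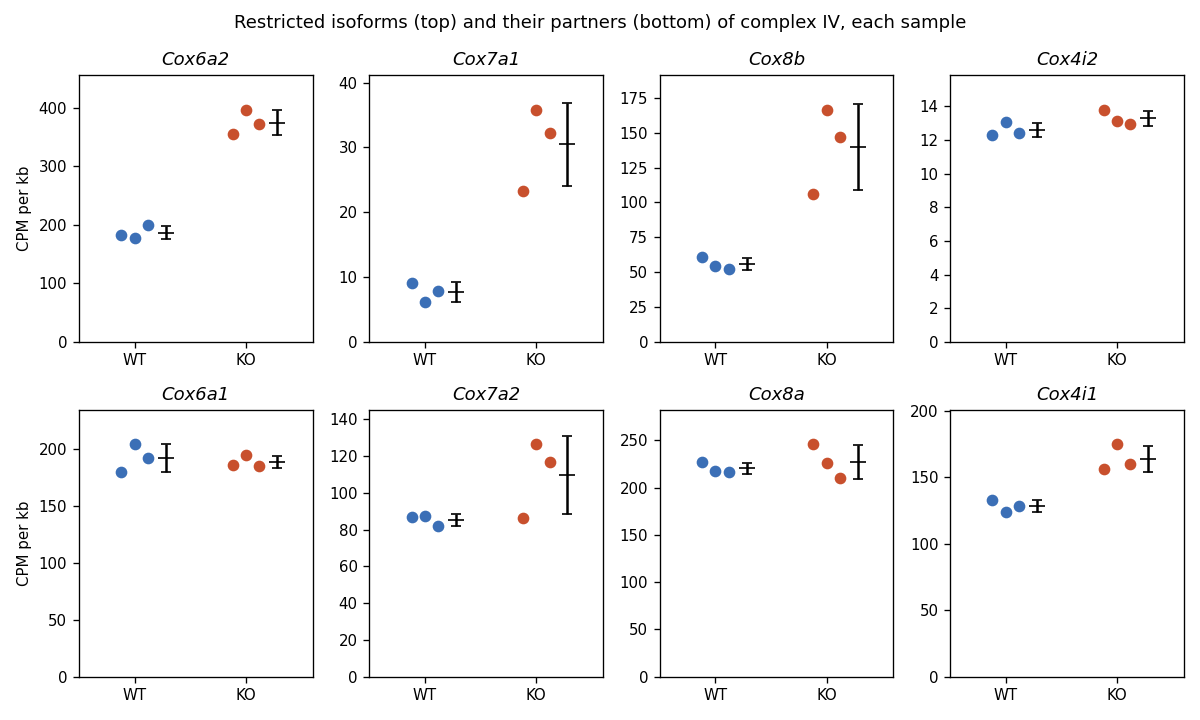
Levels per length (CPM per kilobase) of 4 isoform pairs of complex IV in each sample, restricted isoforms above and their partners below, with the mean and SD of each group in black. *Cox6a2* goes from a mean of 186.4 to 374.1 and *Cox6a1* from 191.8 to 188.5, and each panel has its own axis from 0.

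Within each muscle pair, the ratio of the muscle isoform to its partner was higher in every KO sample than in any WT sample. Counts of the muscle isoform were divided by those of its partner within each sample, which needs no scaling between libraries. The myofibre markers rose 2.27-fold in sum. In whole tissue, a change of isoform within fibres and a larger share of fibres cannot be told apart. For *Cox6a2* over *Cox6a1* the log2 ratio was -0.02, -0.24 and 0.0057 in WT and 0.88, 0.98 and 0.96 in KO, a difference of 1.03 or 2.04-fold. For *Cox7a1* over *Cox7a2* it was -4.07, -4.65 and -4.21 in WT and -2.70, -2.64 and -2.68 in KO, a difference of 1.64 or 3.11-fold. For *Cox8b* over *Cox8a* it was -2.69, -2.78 and -2.84 in WT and -1.99, -1.22 and -1.30 in KO, a difference of 1.26 or 2.40-fold. In the *Cox8* pair KO 1 stood well below the other KO samples. Of the 4 pairs tested, the other was *Cox4i2*, an isoform known from lung, over *Cox4i1*. Its log2 ratio moved the other way, from -4.41, -4.22 and -4.35 in WT to -4.48, -4.71 and -4.61 in KO, a difference of -0.27. In each pair a two-sided exact permutation test over samples gave p = 0.1, and 0.1 after adjustment over the 4 pairs, the smallest value that 3 against 3 samples allow. *Cox6b2* over *Cox6b1*, a further pair that was not tested, had log2 ratios of -4.22, -4.31 and -4.36 in WT and -4.11, -4.52 and -4.47 in KO, overlapping groups with a difference of -0.07. The pairs with *Cox7b2* or *Cox8c* had too few counts for a ratio.

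**Figure D4:**
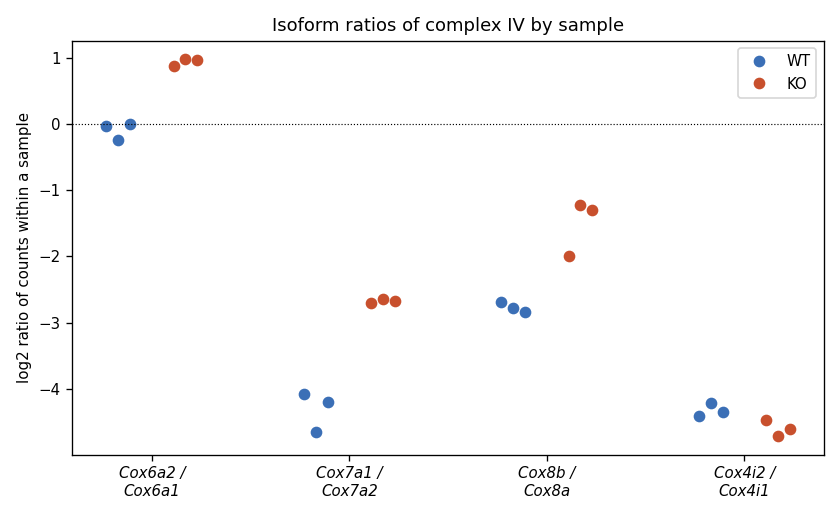
Log2 ratio of the counts of the restricted isoform to those of its partner in each sample, with WT in blue and KO in red, and a dotted line at 0 where the counts are equal. The 3 muscle pairs are higher in every KO sample, by 1.03, 1.64 and 1.26 between the means, and the *Cox4i2* pair is lower by a difference of -0.27.

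Per length of exon, *Cox6a2* made up 50.4%, 46.6% and 50.9% of the *Cox6a1* and *Cox6a2* level in WT and 65.6%, 67.0% and 66.8% in KO. In WT the isoforms were about even, and in every KO sample *Cox6a2* had the larger share. *Cox8b* made up 20.2% ± 0.840 (SD, n = 3) of its pair in WT and 37.9% ± 6.76 in KO, with 30.1% in KO 1. *Cox7a1* made up 8.26% ± 1.51 in WT and 21.7% ± 0.381 in KO, so *Cox7a2* and *Cox8a* stayed the larger members of their pairs in every sample. With the length of the principal transcript in place of all exons, the *Cox6a2* share was 44.2% in WT and 61.7% in KO. These shares are descriptions and were not tested.

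Of the remaining members of complex IV, some were higher and others not called. *Cox5a*, a matrix-facing subunit, was the next highest, from 47.7, 47.9 and 43.3 CPM in WT to 63.3, 85.3 and 79.4 CPM in KO, with a log2 change of 0.72 (SE 0.0964, adjusted p = 0.000264). *Cox4i1*, the common isoform of the largest nuclear subunit, went from 205.9, 192.3 and 199.4 CPM to 242.5, 271.0 and 248.6 CPM, without overlap and by a log2 fold change of 0.35 (SE 0.0524, adjusted p = 0.000504). *Cox4i2* stood at 9.71, 10.3 and 9.78 CPM in WT and 10.9, 10.4 and 10.2 CPM in KO, with a log2 fold change of 0.08 (adjusted p = 0.323). The structural subunits *Cox5b*, *Cox7b*, *Cox6b1* and *Cox7c* were higher by 0.48, 0.39, 0.40 and 0.33, and *Cox6b2*, the testis isoform, by 0.31. *Cox6b1* lost its call without WT 3, KO 2 or KO 3, at an adjusted p of 0.061 to 0.0738. *Cox6c* was not called at 0.12 (adjusted p = 0.371), with WT 1 at 171.1 CPM above the other 5 samples, and without WT 1 it was called at 0.26 (adjusted p = 0.00123).

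The lowest member of complex IV was *Cox7a2l*, a factor that joins complexes III and IV into supercomplexes. It stood at 124.5, 130.0 and 123.0 CPM in WT and at 99.1, 122.7 and 117.0 CPM in KO. Every KO sample lay below every WT sample, KO 2 only narrowly. The log2 fold change of -0.16 (SE 0.0714) had an adjusted p of 0.106, and it was called lower with library size alone, with no filter on low counts and without KO 2.

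All nuclear members of complex III were higher in KO, and among them the electron carriers and core subunits rose most. *Uqcrfs1*, the Rieske iron-sulfur protein, stood at 74.7, 72.5 and 73.4 CPM in WT and 96.5, 130.2 and 123.6 CPM in KO, with a log2 change of 0.67 (SE 0.0935, adjusted p = 0.000342). *Cyc1*, cytochrome c1, which hands electrons to cytochrome c, went from 86.5, 86.8 and 89.1 CPM to 122.2, 148.5 and 145.2 CPM, by 0.66 (SE 0.0679, adjusted p = 4.46e-05). Neither gene overlapped between the groups, and KO 1 was the lowest KO sample in both. The core proteins *Uqcrc2*, at 136.2, 135.2 and 140.6 CPM in WT and 186.3, 225.1 and 217.7 CPM in KO, and *Uqcrc1*, at 164.1, 174.9 and 172.4 CPM and 215.1, 239.1 and 230.3 CPM, rose by 0.61 and 0.42. Without KO 2, *Uqcrfs1* and *Uqcrc2* were no longer called over 1.5-fold.

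The small subunits of complex III changed by less. *Uqcrb* had 190.7, 167.6 and 162.7 CPM in WT and 202.5, 223.6 and 222.1 CPM in KO, with a log2 change of 0.32 (SE 0.0661, adjusted p = 0.00381). *Uqcrq* had 73.9, 67.8 and 66.8 CPM in WT and 72.6, 97.9 and 87.7 CPM in KO, and at 0.31 (SE 0.0936, adjusted p = 0.0236) it was the lowest of the complex. Its KO 1 sample lay below WT 1. *Uqcr10* and *Uqcr11* rose by 0.32 and 0.34. *Uqcrh*, the hinge protein, was called at 0.37 (adjusted p = 0.0333) though KO 1, at 183.2 CPM, lay among the WT samples at 181.7 to 185.2 CPM. The call of *Uqcrh* was lost in DESeq2 (adjusted p = 0.0824) and when any 1 sample but KO 1 was left out (0.0518 to 0.135), and that of *Uqcrq* without WT 3, KO 2 or KO 3 (0.0807 to 0.0912).

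Cytochrome c itself, *Cycs*, the mobile carrier between complexes III and IV, ranked just behind the 3 muscle isoforms. It stood at 76.1, 65.7 and 71.3 CPM in WT and at 119.6, 120.8 and 130.8 CPM in KO. The KO samples were all above the WT samples and KO 1 was close to KO 2. The log2 fold change was 0.80 (SE 0.0586), with an adjusted p of 4.84e-06.

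In complex V the catalytic head rose together. *Atp5b*, the catalytic beta subunit and the most abundant member in CPM, went from 1032, 1034 and 1055 CPM in WT to 1414, 1586 and 1551 CPM in KO, with a log2 change of 0.54 (SE 0.0601, adjusted p = 7.38e-05). *Atp5a1*, the alpha subunit, went from 811.9, 823.1 and 835.6 CPM to 1012, 1209 and 1174 CPM, by 0.46 (SE 0.071, adjusted p = 0.000636). *Atp5c1*, the gamma subunit of the rotating shaft, went from 269.9, 250.9 and 259.0 CPM to 312.9, 350.5 and 348.6 CPM, by 0.38 (SE 0.0561, adjusted p = 0.000503). In all 3 the WT samples lay close together and every KO sample was above them. *Atp5o*, which holds the head to the stalk, rose by 0.50 (SE 0.0419, adjusted p = 1.15e-05), with 189.8, 191.2 and 190.3 CPM in the KO samples.

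The 3 genes of subunit c, which forms the membrane ring and is the same mature protein from each, differed among themselves. *Atp5g1* went from 90.5, 92.6 and 96.2 CPM in WT to 132.5, 162.1 and 153.4 CPM in KO, with a log2 change of 0.68 (SE 0.0684, adjusted p = 3.93e-05). *Atp5g3* went from 132.3, 140.7 and 129.0 CPM to 168.2, 239.8 and 229.7 CPM, by 0.67 (SE 0.113, adjusted p = 0.00112), and was no longer called over 1.5-fold without KO 2. *Atp5g2* had 59.5, 58.8 and 59.1 CPM in WT and 60.5, 70.2 and 66.0 CPM in KO, and its 0.15 (SE 0.0523) only just passed, at an adjusted p of 0.0427. The KO samples of *Atp5g2* were all above the WT samples, KO 1 barely so. Its call was lost in DESeq2 and limma-voom, with library size alone, with the replicate number as a block, and without any 1 sample other than KO 1, at adjusted p of 0.0522 to 0.204. The difference between the 3 genes was not tested.

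The remaining members of complex V were mostly higher too, with log2 fold changes of 0.22 to 0.47 in those called. *Atp5d* and *Atp5e*, the other subunits of the shaft, rose by 0.30 and 0.42, the stalk subunits *Atp5f1*, *Atp5h* and *Atp5j* by 0.43, 0.22 and 0.37, and the membrane subunits *Atp5j2*, *Atp5l* and *Atp5mpl* by 0.28, 0.26 and 0.47. *Atp5h* lost its call with library size alone (adjusted p = 0.0533). *Atp5k*, a further membrane subunit, was not called at 0.20 (adjusted p = 0.195), and was called without KO 1 at 0.33 (adjusted p = 0.0216). *Atp5s*, named coupling factor B, was the lowest, at 9.17, 8.47 and 8.65 CPM in WT and 7.842, 8.499 and 7.998 CPM in KO. Its groups overlapped, and the log2 fold change of -0.11 (SE 0.065) had an adjusted p of 0.196. *Atp5j* shares 397 exonic bases with *Gabpa* on the opposite strand, 1 of 14 members that share exonic bases with another gene, 11 of them only on the opposite strand. Of the members over 1.5-fold, *Uqcrc2* shares 504 with *Pdzd9* and *Cox5a* 269 with *Gm26631*, also on the opposite strand.

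Other genes of the same complexes were looked at by list. Of 6 subunits encoded in the mitochondrial genome, 4 were higher and 0 lower, with a median log2 fold change of 0.41. The higher ones were *mt-Cytb* of complex III (0.33) and *mt-Co1*, *mt-Co2* and *mt-Co3* of complex IV (0.44, 0.39 and 0.72). *mt-Co3* was uneven within KO, at 618.1, 879.9 and 1077 CPM in KO 1 to 3. *mt-Atp6* and *mt-Atp8* had 0.35 and 0.44 (adjusted p = 0.0527 and 0.0514 in edgeR's quasi-likelihood test), and in both the groups overlapped. Of 36 assembly factors, with the inhibitor *Atpif1*, 34 could be tested, 9 were higher (26.5%) and 4 lower (11.8%), where all genes tested had 21.9% and 23.1%. Their median was 0.10, beside 0.37 for the subunits, and that difference was not tested. For complex III 2 of 6 were higher and 0 lower, with *Uqcc1* highest at 0.34 (adjusted p = 0.00147) and *Bcs1l*, which inserts the Rieske protein, lowest at -0.05 (not called). For complex IV 5 of 23 were higher (21.7%, near the 21.9% of all genes) and 3 lower, from *Cox15*, of heme a synthesis, at 0.35 (adjusted p = 0.000204) to *Higd1a*, a hypoxia-induced protein, at -0.73 (adjusted p = 0.000304). For complex V 2 of 5 were higher and 1 lower, with *Fmc1* at 0.56 (adjusted p = 0.00523) and *Atpif1*, which inhibits ATP hydrolysis by the enzyme, at -0.35, from 185.3 ± 17.8 to 145.0 ± 6.75 CPM (adjusted p = 0.00226).

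Among 3 tested nuclear subunits that the symbols do not cover, 0 were higher and 1 lower. *Ndufa4l2*, a paralog of the complex IV subunit *Ndufa4* that is known as a hypoxia target, fell by 0.54 on the log2 scale, from 157.2 ± 18.4 to 108.1 ± 4.09 CPM (adjusted p = 0.000325), while *Usmg5*, a small subunit of complex V, had the highest value, 0.21 (adjusted p = 0.0631). Of 14 nuclear regulators of respiratory genes 3 were higher (21.4%) and 4 lower (28.6%), close to the 21.9% and 23.1% of all genes tested, with a median of -0.02. The coactivator *Ppargc1a* had 8.81, 8.03 and 9.47 CPM in WT and 15.7, 18.5 and 19.1 CPM in KO, with a log2 change of 1.02 (SE 0.0906, adjusted p = 1.78e-05) without overlap. Its relative *Pprc1* was the lowest of the list, at -0.40 (adjusted p = 7.71e-05). The other genes higher on that list were the nuclear receptors *Esrrg* and *Esrra* (0.79 and 0.33), and those lower were *Nrf1*, *Gabpb1* and *Yy1* (-0.29, -0.24 and -0.18).

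**Figure D5:**
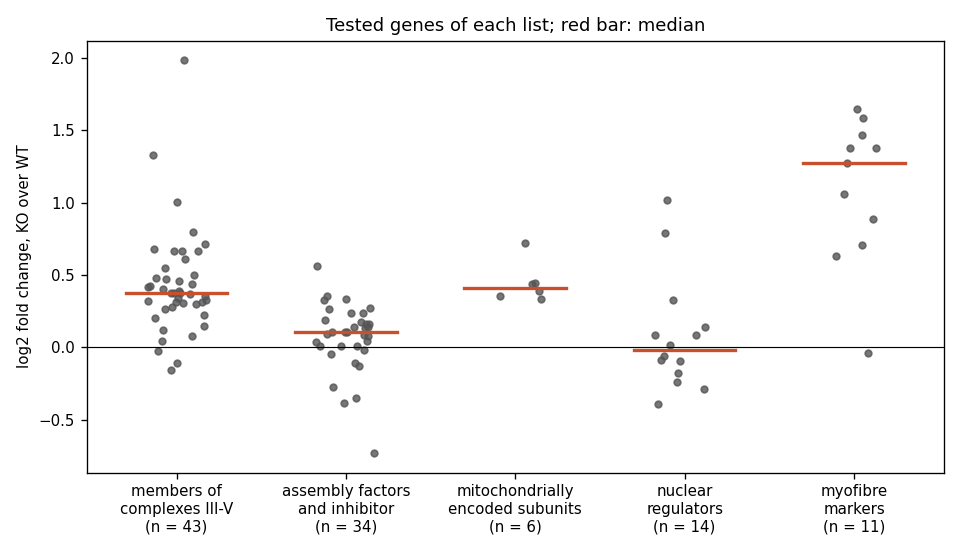
Log2 fold change of KO over WT for each tested gene of 5 lists, with the median as a red bar: the 43 members, 34 assembly factors with the inhibitor, 6 mitochondrially encoded subunits, 14 nuclear regulators and 11 myofibre markers. The medians are 0.37, 0.10, 0.41, -0.02 and 1.27.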

How the data were processed

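RNA-seq of leg muscle at E18.5d was analysed in 3 WT and 3 KO samples. The authors trimmed 150 bp reads, mapped them to mm10 and deposited raw counts per gene as whole numbers, without normalization. The submitters' processing notes name Trim Galore 0.6.6, HISAT2 2.2.1 and featureCounts 2.0.1. The annotation and strand setting of the counting are not given in the sources used here, so reads of overlapping genes, paralogs and processed pseudogenes may be assigned with error. Of 56262 gene IDs, 55227 were found in GENCODE M21, which gave symbols, positions and exon lengths. The table of the series and the files per sample held the same counts.

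Counts were analysed in R 4.3.3 with edgeR 4.0.16 (filterByExpr, TMM, glmQLFit and glmQLFTest on genotype alone), with Benjamini-Hochberg adjustment of p over all 22071 genes that passed the filter. The SE is the log2 fold change divided by the square root of F. Isoform ratios used a pseudocount of 0.5. Alternatives were RLE and upper-quartile factors, library size alone, DESeq2 1.42.0, limma-voom (limma 3.58.1), other filters on low counts, omission of mitochondrially encoded genes, a replicate block and leaving out each sample. Principal-transcript lengths, and other scalings of the sums, were added after seeing the data. Scripts were tested on simulated data. The members and lists were chosen with earlier results of these data known. Values in every sample are given for isoform pairs, cytochromes, catalytic, core and c subunits, and for the members with the 2 highest and 2 lowest changes in each complex, and list genes are named from the ends of each list. *Cox5a*, the *Cox6b2* ratio, the brown fat genes, the other called genes of the regulators, *Krt1* and *Krt10* were added after their values were seen. So were single values of *Atp5o*, *Uqcrh* and *Cox6c*, and the WT values of *Cfd* and *Cidec*.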

Additional observations from a re-analysis of the deposited data

How the results depend on the processing

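The number of members higher was 34 to 36 under other scalings, filters and tools, 35 with the replicate number as a block, and 31 to 37 with 1 sample left out, and the number over 1.5-fold was 9 to 11 and, with 1 sample left out, 7 (without KO 2) to 11. The number lower was 0, except for 1, *Cox7a2l*, with library size alone and with no filter beyond 1 count, and it was 0 to 1 with 1 sample left out (1 without KO 2, at -0.22). *Cox6a1* changed sign with upper-quartile factors (0.0439) and without WT 2 (range with 1 sample left out -0.0713 to 0.0198), and *Cox8a* with library size alone (-0.0223) and without KO 1 (range -0.0093 to 0.1055). Neither was called in any of these fits. The difference in the *Cox4i2* share was -1.41 percentage points per length of exon and -0.811 with principal-transcript length. No label ties the replicate numbers to litters. Same-numbered samples deviated from their group means with correlations of -0.20, -0.13 and 0.05 and were not treated as paired, and with the block *Atp5g2* alone lost its call (0.15, adjusted p = 0.0623 in edgeR's quasi-likelihood test). With 1 sample left out, the isoform differences were 0.95 to 1.07 for *Cox6a2*, 1.47 to 1.75 for *Cox7a1*, 1.12 to 1.51 for *Cox8b* and -0.33 to -0.22 for *Cox4i2*. The sums of complexes III, IV and V and of cytochrome c had ratios of 1.26 to 1.38, 1.28 to 1.41, 1.28 to 1.41 and 1.66 to 1.82 under other scalings. The causes of these changes were not tested. 3 samples in each group limit the precision, 3 members with 0 to 4 counts in each sample were not tested, and whole tissue cannot separate cell types.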

Other observations

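Macrophage, endothelial and fibroblast markers were mostly higher in KO, where 21.9% of all genes tested were higher. Of 5 macrophage markers 5 were higher in KO, 3 of them over 1.5-fold, with a median log2 fold change of 0.72 and a summed level of 187.2 to 200.9 CPM in WT and 303.9 to 330.4 CPM in KO. The mannose receptor *Mrc1* was the highest of these, at 0.91 (adjusted p = 9.75e-07 in edgeR's quasi-likelihood test). Of 5 endothelial markers 4 were higher, 0 of them over 1.5-fold, with a median of 0.17. The junction protein *Pecam1* led them, at 0.38 (adjusted p = 4.32e-05 in the same test). Of 5 fibroblast markers 4 were higher, 0 of them over 1.5-fold, with a median of 0.19. The collagen gene *Col1a1* was not called at 0.16 (adjusted p = 0.15 in the same test).

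The medians of the keratinocyte, erythroid and adipocyte markers were -3.99, -3.10 and 1.18. Among the adipocyte markers *Cfd* and *Cidec*, known from white fat, had log2 fold changes of 4.21 and 4.05 (SE 0.502 and 0.319). Their WT levels were low and uneven, so the size of these changes is uncertain. In WT 1 to 3 *Cfd* had 2.78, 0.218 and 2.60 CPM, and *Cidec* 1.26, 0.351 and 1.62 CPM.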
